A study of Mus musculus with 41 samples.

Results

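The 39 genes described here encode the proteins that license and fire replication origins, unwind DNA, copy it and repackage it. They were taken by gene symbol for their role in replication, by a rule with no threshold on a measured value but with earlier results of these data known. All 39 were found among the 24410 gene symbols of the count table. All 39 also passed the filter on low counts, which left 15204 genes for testing. By role they fall into 10 groups. These are origin licensing and its inhibitor (Orc1, Cdc6, Cdt1, Gmnn), the MCM helicase core (Mcm2 to Mcm7), helicase activation (Mcm10, Cdc45, Gins1 to Gins4), primase with polymerase alpha (Pola1, Pola2, Prim1, Prim2), and polymerases delta and epsilon (Pold1, Pold2, Pole, Pole2). The others are the sliding clamp with its loader (Pcna, Rfc1 to Rfc5), Okazaki fragment maturation (Fen1, Lig1), single-strand binding (Rpa1, Rpa2), chromatin assembly (Chaf1a, Chaf1b) and nucleotide supply (Tyms, Rrm1, Rrm2).

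As background, a cell copies its genome once per division. In G1 the origin recognition complex, Cdc6 and Cdt1 load the MCM ring onto DNA, and geminin (Gmnn) blocks Cdt1 once S phase has begun. Mcm10, Cdc45 and the GINS complex then turn the ring into the working helicase, primase and polymerase alpha start each strand, and polymerases epsilon and delta extend them on the PCNA clamp. Many of these genes are transcribed under E2F factors as cells enter S phase, and their transcripts become scarce when neural progenitors leave the cycle to become neurons.

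The libraries came from mouse R1-iCas9 embryonic stem cells, in which doxycycline (1 µg/ml) induces Cas9. The cells were transfected with synthetic guides and differentiated towards spinal cord neural progenitors in N2B27 medium. All groups received bFGF (10 ng/ml), then CHIR99021 (5 µM) from day 2, retinoic acid (RA, 100 nM) with the Smoothened agonist SAG (10 nM) from day 3, and SAG alone from day 5. Genotypes are named as the labels give them. Eed, Ezh2, Brd8 and Nr6a1 cells had received guides against that gene, pooled at 5 per gene, and NT cells a non-targeting control, so that a group is a transfected population and not a clone. Of the targets, Eed and Ezh2 belong to PRC2, the complex that places the repressive methyl mark on histone H3. Brd8 is a bromodomain protein of an acetyltransferase complex (TIP60), and Nr6a1 is a nuclear receptor without a known ligand. RNA of the 5 genotypes was taken at days 7, 9 and 11. This gave 15 groups, of which 11 had 3 libraries, while Nr6a1 at each day and Brd8 at day 9 had 2. The labels do not say whether libraries of a group came from separate cultures, so the spread between them may be technical. The p-values set a difference against that spread, which the model estimated with the libraries of all groups.

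The bases just before the start site are shown for 5 members, because a larger share of these genes' promoters than of all promoters held an E2F word. The stretches are from RefSeq (GRCm38.p6), each the 160 bases before the annotated start, 5′ to 3′ on the gene's strand. Capitals mark the words TTTCGCGC, TTTGGCGC, TTTCCCGC and TTTGCCGC or their reverse complements, and neighbouring words may overlap. Mcm5, Mcm6, Cdc6 and Pola1 are shown as members that fell by 1.52 to 2.14 on the log2 scale in NT cells between days 7 and 11, and Rfc3 as one that fell by 0.74.
Mcm5, chr8:75109349-75109508, plus strand: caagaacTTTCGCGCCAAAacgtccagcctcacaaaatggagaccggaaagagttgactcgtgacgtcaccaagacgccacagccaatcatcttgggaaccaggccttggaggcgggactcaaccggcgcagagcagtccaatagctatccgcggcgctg
Mcm6, chr1:128359706-128359865, minus strand: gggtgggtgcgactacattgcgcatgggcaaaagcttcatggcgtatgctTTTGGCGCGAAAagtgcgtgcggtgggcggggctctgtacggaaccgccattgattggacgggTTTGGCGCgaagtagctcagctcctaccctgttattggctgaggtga
Cdc6, chr11:98907991-98908150, plus strand: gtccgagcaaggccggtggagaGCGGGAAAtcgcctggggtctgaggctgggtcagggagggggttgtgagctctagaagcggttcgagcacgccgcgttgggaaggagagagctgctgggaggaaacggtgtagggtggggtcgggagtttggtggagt
Pola1, chrX:93632156-93632315, minus strand: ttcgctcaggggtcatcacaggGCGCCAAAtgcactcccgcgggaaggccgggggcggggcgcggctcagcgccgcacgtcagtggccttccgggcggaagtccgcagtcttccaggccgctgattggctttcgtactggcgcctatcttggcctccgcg
Rfc3, chr5:151651209-151651368, minus strand: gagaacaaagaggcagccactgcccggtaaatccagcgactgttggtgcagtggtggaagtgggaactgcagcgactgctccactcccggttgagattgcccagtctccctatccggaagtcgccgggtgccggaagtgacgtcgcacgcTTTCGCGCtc

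A promoter of 250 bases before to 50 bases after a start was listed for 31 of the 39 members. At least 1 of the 4 E2F words, on either strand, was in 13 of these 31 (41.9%), against 704 of 27025 genes (2.6%) in the whole promoter table and 4.49% of the 11352 tested genes with a promoter. The 13 were Orc1, Cdc6, Cdt1, Mcm3, Mcm5, Mcm6, Mcm7, Gins3, Pola1, Pold1, Pole2, Rfc3 and Lig1. The NF-Y word CCAAT, on either strand, was in 20 of 31 (64.5%), against 41.1% of all genes. The words TTTGAA and TTCGAA, named as the CHR element, were in 7 of 31 (22.6%), close to the 21.7% of all genes. Members with and without a word overlapped in how they moved. From day 7 to day 11 in NT cells the median log2 fold change was -1.73 in the 13 members with an E2F word (from -2.34 to -0.74) and -1.54 in the 18 without (from -2.15 to -0.71). The Rfc3 promoter holds the word TTTCGCGC 10 bases before the start, as Mcm5 holds it further upstream, and Pold2 was the 1 member that fell less than Rfc3. Rfc3 is a single gene picked for its small fall. The part of these words in the fall was not tested, and 8 members had no promoter listed.

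Libraries held 8581282 to 38240227 estimated counts, and the 39 members together took 0.109% to 0.426% of them. No member was at 0 in any library, and the lowest was Gmnn with 3 counts in 1 NT library of day 11. Levels are CPM, the counts scaled by each library's TMM-adjusted total. Two-sided tests used edgeR's quasi-likelihood model over all 41 libraries with Benjamini-Hochberg adjustment over the 15204 genes, and a gene was called at an adjusted p under 0.05. Replicate 3 of NT at day 11 and replicate 3 of Eed at day 11 correlated with their own group less than any other library did (0.939 and 0.945), so day 11 counts are also given without both. In their own knockouts the 4 targeted genes differed from NT by log2 fold changes of -0.51 to 0.37 over 12 comparisons, of which 1 was called (Ezh2 at day 11, higher). Small insertions or deletions need not lower a transcript, so these levels do not check the labels. The labelled neural progenitors carried progenitor markers at every day (10 genes, summed 3470 to 3660 CPM in NT at day 7). Neuronal markers summed to 4150 to 4390 CPM in NT at day 7 (12 genes). Sums over different gene lists do not rank cell types. Astroglial markers (10 genes, 9 tested) rose in NT from 452 to 499 to 3760 to 3950 CPM by day 11. In these bulk libraries fewer cells of a type and less RNA per cell cannot be told apart.

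**Figure D1:**
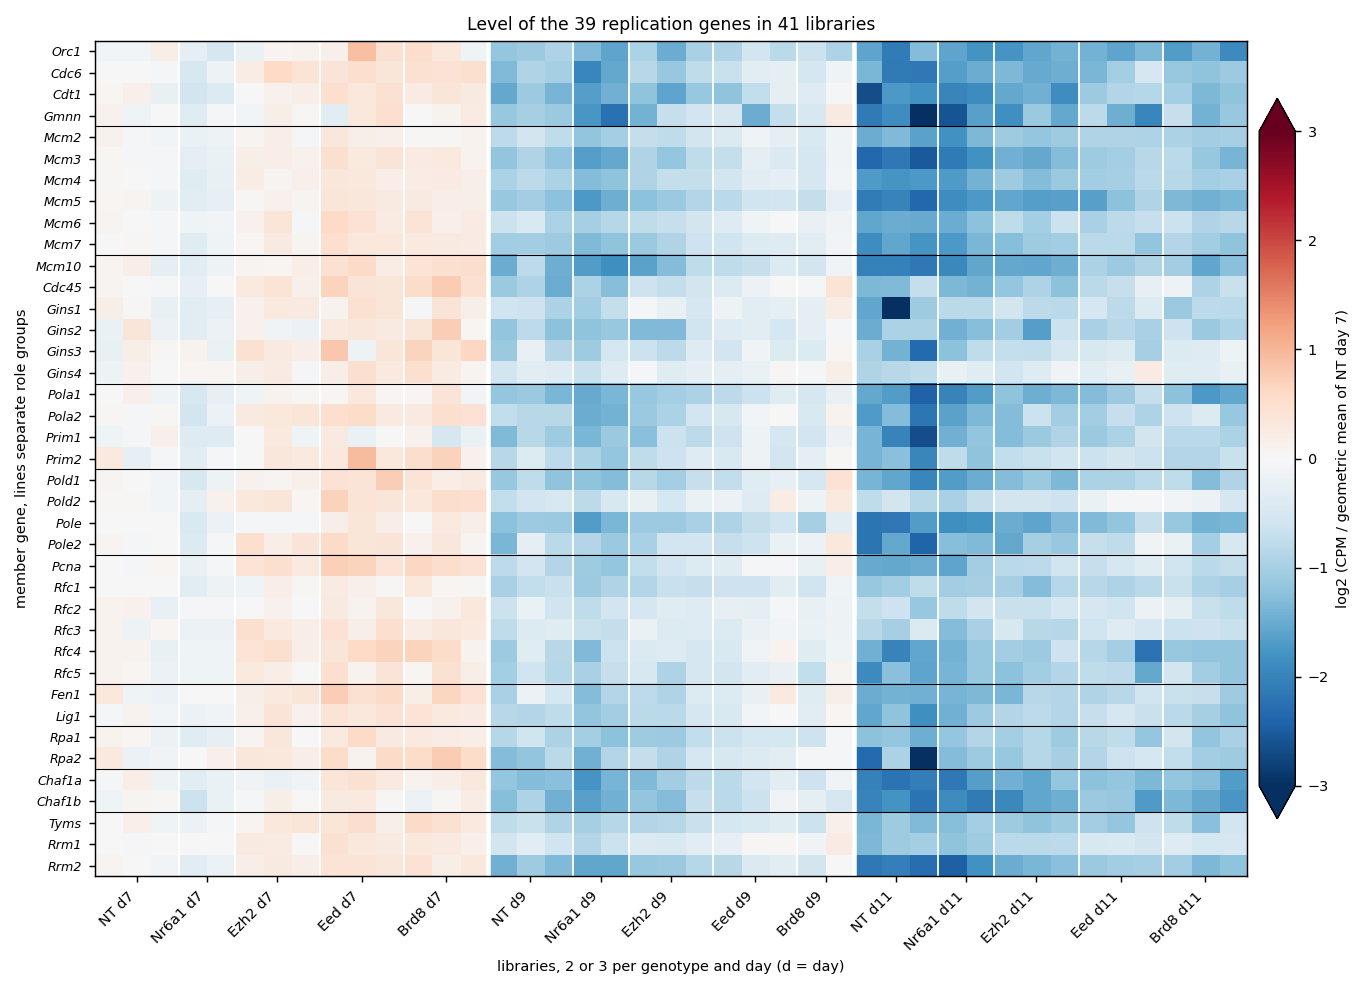
Level of each of the 39 replication genes (rows, grouped by role) in each of the 41 libraries (columns, grouped by day and genotype), as log2 of CPM over the geometric mean of NT at day 7. All rows darken to blue from day 7 to day 11 in NT cells, and the Eed and Brd8 columns of each day are paler blue or redder than NT at most rows.

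In NT cells the replication genes fell together as differentiation went on. All 39 were lower at day 9 than at day 7 (median log2 fold change -0.83, from -1.33 to -0.42), and all 39 were lower at day 11 than at day 7 (median -1.63, from -2.46 to -0.71). From day 9 to day 11, 32 of 39 were lower (median -0.78) and 7 were not called. None was called higher at either step. With each library left out in turn, the count was 31 to 37 from day 7 to day 9 and 25 to 32 from day 9 to day 11. From day 7 to day 11 it stayed at 39. Shares of all tested genes in those fits are not given here. Over all tested genes 13.3% were called lower and 14.5% higher from day 7 to day 9, 12.9% lower and 10.6% higher from day 9 to day 11, and 23.3% lower and 21.9% higher from day 7 to day 11. The medians over all tested genes were -0.0098, -0.0077 and -0.0021. At day 11 every member was lower in each of the 3 NT libraries than in any of the 3 of day 7, and 34 of the 39 had fallen at least 2-fold. The shares of all tested genes that did either were not counted. The 39 levels summed to 3350 ± 145 CPM (SD, n = 3) at day 7, 1800 ± 162 at day 9 and 1090 ± 63.6 at day 11. The ribosomal RNA precursor Rn45s moved the same way, at 14.1%, 14.7% and 14.1% of counts in the NT libraries of day 7, 6.89%, 6.74% and 5.95% at day 9 and 5.18%, 6.79% and 5.21% at day 11. Its part in the result was not tested.

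Per kilobase of exon, the highest NT members at day 7 were Rrm2 at 80.8 ± 4.76 CPM per kb (SD, n = 3), Mcm5 at 66.4 ± 5.58, Mcm4 at 58.8 ± 1.58 and Mcm7 at 54.0 ± 1.85. The lowest on this scale were Gins2 at 4.15 ± 0.984 and Prim2 at 4.16 ± 0.825, so the members spanned a wide range within the same cells. The length used was the union of all annotated exons of a gene, 1.35 to 11.16 kb over the members. This can exceed the transcript counted, so ranks on this scale depend on annotation. By CPM without length, Gmnn (10.6, 8.85 and 9.85) and Gins1 (11.4, 10.4 and 8.62) were among the lowest at day 7. Rrm2, the regulated subunit of ribonucleotide reductase, was still the highest at day 11 (18.2 ± 1.55), followed by Pcna (17.8 ± 0.328) and Mcm4 (17.7 ± 0.398), whose values overlapped.

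Among the licensing genes, Cdt1, which brings the MCM ring to origins (chr8:122568015-122573554, GRCm38), was at 110, 118 and 91.1 CPM in the 3 libraries of day 7, 36.5, 49.6 and 40.3 at day 9 and 16.6, 32 and 29.8 at day 11. The days did not overlap, and the fall from day 7 to day 11 passed the test (log2 fold change -2.04, SE 0.18, adjusted p = 5.4e-12). Gmnn, the inhibitor of Cdt1, was at 10.6, 8.85 and 9.85 CPM at day 7 and 2.25, 2.69 and 0.302 at day 11. Its log2 fold change, -2.46 (SE 0.41, adjusted p = 4.04e-06), was the largest fall of the 39, and it was -1.99 without replicate 3 of day 11, the library of 3 counts. Orc1, the subunit that binds origins, and Cdc6, which loads MCM with it, fell by 1.63 and 1.82 on the log2 scale over the same interval.

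The 6 genes of the MCM ring fell by 1.47 (Mcm2) to 2.34 (Mcm3) on the log2 scale from day 7 to day 11. Mcm4 (chr16:15623897-15637400), which had the smallest adjusted p of all members, was at 215, 212 and 204 CPM at day 7, 109, 123 and 109 at day 9 and 64.9, 62.1 and 63.3 at day 11. The 3 libraries of a day lay close together and far from the other days (log2 fold change -1.73, SE 0.10, adjusted p = 2.07e-17). Mcm3 (chr1:20802968-20820312) went from 211, 196 and 197 CPM through 89, 108 and 88.6 to 39.3, 45.4 and 34.9. Its second step (-1.26, SE 0.13) was at least as large as its first (-1.08, SE 0.12), and the difference between the steps was not tested.

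Of the 6 helicase activation genes, 4 were called lower from day 9 to day 11. Mcm10 was at 52.8, 58 and 41.1 CPM at day 7, 17.8, 29.3 and 18.3 at day 9 and 12.3, 12.2 and 11.3 at day 11 (log2 fold change -2.08, SE 0.19, adjusted p = 6.1e-12). Cdc45, a part of the active helicase, was at 24.5, 23 and 22.5 CPM at day 7, 10.7, 12.3 and 8.25 at day 9 and 9.14, 9.28 and 14.2 at day 11. It more than halved to day 9 and was then level, with days 9 and 11 overlapping (log2 fold change 0.04, SE 0.20, adjusted p = 0.915). Gins2 had the same shape (14.5, 21.7 and 14.9 CPM, then 7.33, 9.73 and 7.1, then 5.96, 8.63 and 8.65), with a log2 fold change of -0.07 in the second step (SE 0.23, adjusted p = 0.879). Its partners in the GINS complex were called lower in that step, Gins1 at -0.97, Gins3 at -0.79 and Gins4 at -0.40. Exons of Cdc45 overlap Ufd1 and exons of Gins2 overlap Gse1 on the opposite strand, and no source used here states whether the counting used strand.

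The subunits of polymerase delta had unlike fold changes. Pole, the catalytic subunit of the leading strand polymerase (chr5:110286306-110337474), was at 151, 149 and 147 CPM at day 7 and 32.7, 33.6 and 46.9 at day 11 (log2 fold change -1.99, SE 0.15, adjusted p = 3.11e-14), and its partner Pole2 had a log2 fold change of -1.99. Of polymerase delta, the catalytic subunit Pold1 fell by 1.61 on the log2 scale and the accessory subunit Pold2 by 0.71, the smallest fall of the 39. Pold2 was at 53.3, 53 and 48.8 CPM at day 7, 31, 34.7 and 37 at day 9 and 30.7, 35.3 and 28.5 at day 11, so that days 9 and 11 overlapped. Pola1, the catalytic subunit of polymerase alpha, was at 80.4, 90.7 and 74.6 CPM at day 7 and 28, 25.4 and 15.2 at day 11 (log2 fold change -1.83, SE 0.17, adjusted p = 1.3e-11), and the primase subunits Prim1 and Prim2 had log2 fold changes of -1.91 and -1.53.

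The clamp with its loader had the smallest median fall of the 10 roles (-1.25), barely apart from nucleotide supply (-1.26) and helicase activation (-1.3). Pcna, the clamp that holds polymerases on DNA (chr2:132249162-132253314), was at 121, 120 and 127 CPM at day 7, 70.8, 82.3 and 67 at day 9 and 42.7, 42.1 and 43.7 at day 11 (log2 fold change -1.52, SE 0.12, adjusted p = 5.06e-13). Rfc1, Rfc2 and Rfc3 had log2 fold changes of only -0.98, -0.81 and -0.74, and all 3 were among the 7 members not called in the second step. Rfc4 and Rfc5, subunits of the same complex, had -1.65 and -1.56. The remaining member not called from day 9 to day 11 was Orc1 (-0.56, adjusted p = 0.0599).

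On the lagging strand and behind the fork, Lig1, which seals Okazaki fragments, was at 106, 116 and 103 CPM at day 7 and 37, 46.7 and 30 at day 11 (log2 fold change -1.51, SE 0.13, adjusted p = 2.51e-12). Rpa1, which coats single strands, was at 129, 125 and 106 CPM at day 7 and 50.7, 53.1 and 43.2 at day 11 (log2 fold change -1.29, SE 0.14, adjusted p = 1.21e-09). Its partner Rpa2 was uneven at day 11 (5.58, 14.6 and 2.92 CPM), and its log2 fold change of -1.90 became -2.73 without replicate 2 of that day and -1.53 without replicate 3. From day 9 to day 11 the calls for Rpa2 (-0.79) and Gmnn (-1.38) were lost without replicate 3 (-0.42, adjusted p = 0.233, and -0.91, adjusted p = 0.0888), and leaving out the low-agreement libraries gave 26 calls in place of 32. Chaf1a, the large subunit of the histone chaperone CAF-1 (chr17:56040439-56072289), was at 68.7, 80.6 and 63 CPM at day 7 and 17.3, 15.2 and 16.7 at day 11 (log2 fold change -2.11, SE 0.16, adjusted p = 6.52e-14). Rrm2 (chr12:24708241-24714146) was at 238, 221 and 213 CPM at day 7, 82.9, 107 and 89.1 at day 9 and 50.9, 54.4 and 45.9 at day 11 (log2 fold change -2.15, SE 0.14, adjusted p = 5.77e-16), while its partner Rrm1 had a log2 fold change of -1.14.

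**Figure D2:**
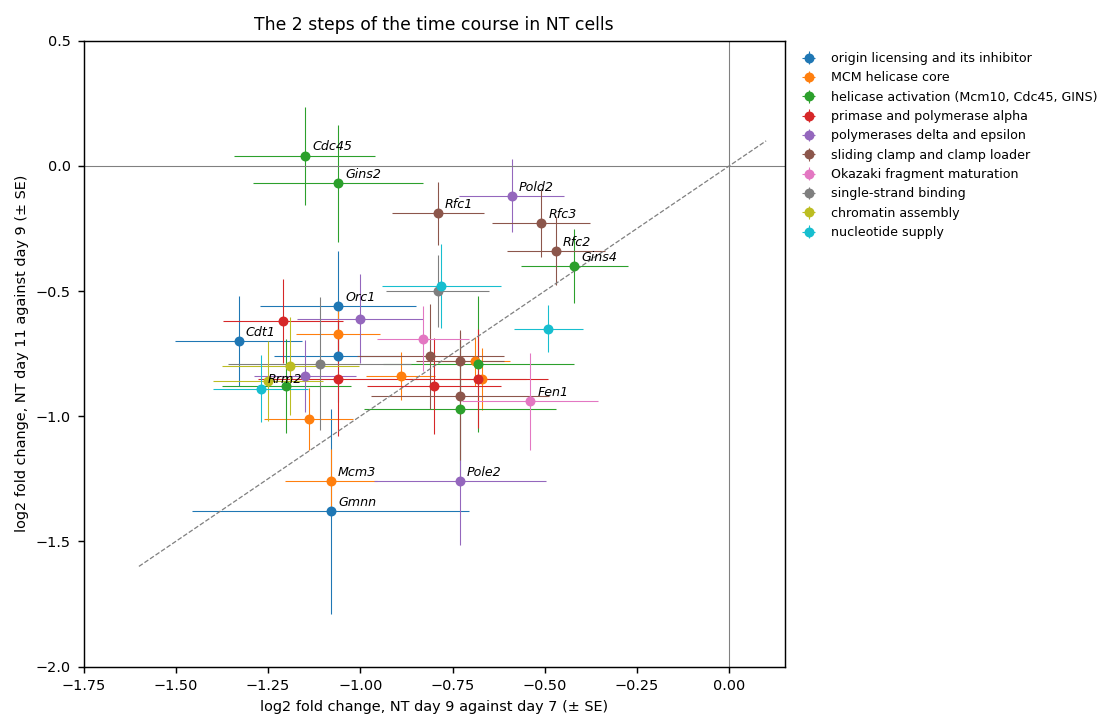
Log2 fold change with its SE for each member in NT cells, from day 7 to day 9 (x axis) and from day 9 to day 11 (y axis), coloured by role, with 3 libraries per day. Both axes share the libraries of day 9, so the steps are not independent. The dashed line marks equal steps. Cdc45 (0.04) and Gins2 (-0.07) lie near 0 on the y axis, and Gmnn (-1.38), Mcm3 (-1.26) and Pole2 (-1.26) lie lowest.

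Other genes of the same processes moved with the members from day 7 to day 11. Of 40 further replication genes, 35 were lower and none higher, led by Uhrf1, which maintains DNA methylation behind the fork (log2 fold change -2.33, SE 0.13, adjusted p = 1.68e-17), Topbp1 (-1.43, SE 0.10, adjusted p = 3.24e-15) and Ticrr (-2.19, SE 0.15, adjusted p = 1.35e-14), which act at origin firing. All 21 G2/M genes were lower, such as the mitotic kinesin Kif11 (-1.62, SE 0.11, adjusted p = 4.26e-15). Of 23 E2F, pocket protein and G1/S genes, 19 were lower and 1 higher. The activator E2f1 had -2.61, SE 0.18, adjusted p = 7.49e-15, and the gene that rose was the pocket protein gene Rbl2 (0.92, SE 0.14, adjusted p = 4.57e-07). Markers of other cells moved as well, with 9 of 9 tested astroglial genes and 6 of 8 oligodendrocyte genes higher. Neuronal genes were higher in 6 of 12 and lower in 2, and neural progenitor genes were higher in 1 of 10 and lower in 5. Their part in the fall of the replication genes was not tested.

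In Eed cells fewer replication genes were called higher than in NT cells at day 7 than at day 11. Those called higher numbered 10 of 39 at day 7 (median log2 fold change of the 39 genes 0.38), 20 at day 9 (median 0.51) and 33 at day 11 (median 0.79, from 0.13 to 1.49). None was called lower. Over all tested genes 2.9% were called higher and 5.76% lower at day 7, 2.99% and 2.16% at day 9, and 13.3% and 10.6% at day 11. The medians over all tested genes were 0, 0.0062 and 0.023. All 39 fold changes were above 0 at each of the 3 days. The members still fell with time in Eed cells, to a summed 1850 ± 99 CPM (SD, n = 3) at day 11 from 4290 ± 174 at day 7. The day 11 sum in Eed cells was close to that of NT cells at day 9 (1800 ± 162).

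**Figure D3:**
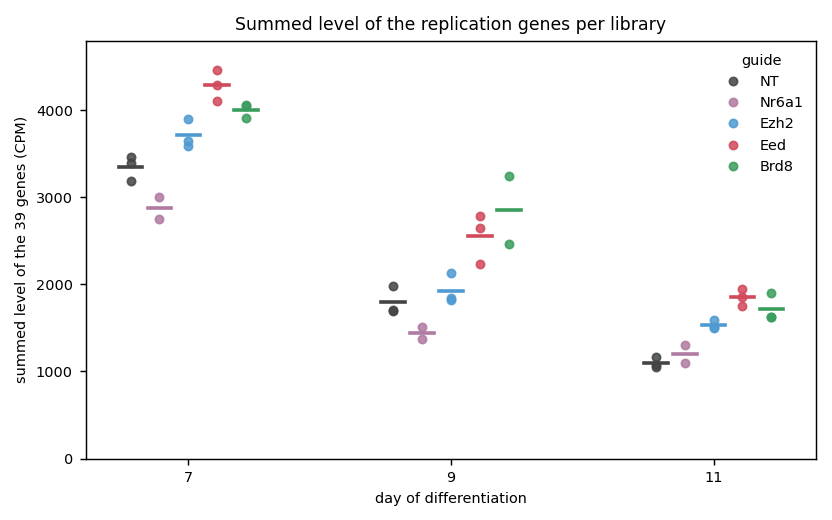
Sum of the CPM of the 39 replication genes in each library (points) with the group mean (bars), by day (x axis) and genotype (colour), 2 or 3 libraries per group. NT libraries lie below every Eed and Brd8 library of the same day, and Nr6a1 libraries lie below NT at days 7 and 9.

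The MCM ring was higher as a whole in Eed cells at day 11, with 6 of 6 genes called. Mcm3 had the smallest adjusted p of the members, at 96.1, 98.9 and 113 CPM against 39.3, 45.4 and 34.9 in NT. Every Eed library was more than double every NT library (log2 fold change 1.36, SE 0.13, adjusted p = 8.93e-10). Mcm4 was at 102, 105 and 120 CPM in Eed cells (log2 fold change 0.78, SE 0.10, adjusted p = 1.04e-07), and Mcm2 had the smallest difference of the ring (0.56). Of the licensing genes, Cdt1 was at 49.9, 57.7 and 58.5 CPM, above all 3 NT libraries (log2 fold change 1.09, SE 0.18, adjusted p = 1.76e-05), and Cdc6 and Gmnn were also called. The call for Gmnn (1.16, adjusted p = 0.0342) was lost without replicate 3 of NT (0.69, adjusted p = 0.213). Orc1 was at 7.02, 6.23 and 7.33 CPM, inside the range of NT (6.27, 4.36 and 7.65), and was not called (0.17, adjusted p = 0.637).

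Downstream of licensing, Mcm10 was at 26, 23.4 and 27 CPM in Eed cells at day 11 against 12.3, 12.2 and 11.3 in NT, without overlap (log2 fold change 1.09, SE 0.19, adjusted p = 2.7e-05). Of the GINS genes Gins1, Gins3 and Gins4 were called, and Gins2 was not (0.19, adjusted p = 0.616). Primase and polymerase alpha were called in 4 of 4 genes, from 0.79 (Pola2) to 1.04 (Prim1), and polymerases delta and epsilon in 4 of 4, from 0.60 (Pold2) to 1.49 (Pole2). Pole2 was low in both genotypes, at 10.9, 10.4 and 16.3 CPM in Eed cells and 3.87, 6.03 and 3.32 in NT (log2 fold change 1.49, SE 0.25, adjusted p = 2.45e-05). Pole was at 59.6, 65.2 and 92.6 CPM, above NT in every library (log2 fold change 0.94, SE 0.14, adjusted p = 5.57e-06).

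Pcna was called in Eed cells and 3 of its 5 loader genes were not. Pcna was at 75.5, 85.2 and 95.8 CPM against 42.7, 42.1 and 43.7 in NT (log2 fold change 0.99, SE 0.12, adjusted p = 1.1e-07), and at day 7 it had the smallest adjusted p of the members (0.61, adjusted p = 0.000674). Of the 5 loader genes only Rfc2 and Rfc5 were called at day 11, with log2 fold changes of 0.38 and 0.59. Rfc1, Rfc3 and Rfc4 had 0.13, 0.23 and 0.42, and Rfc4 differed between Eed libraries (7.84, 6.97 and 3.06 CPM). The group's median of 0.40 was the lowest of the 10 roles. Both genes of Okazaki fragment maturation, single-strand binding and chromatin assembly were called, and Rrm2 (104, 108 and 113 CPM, log2 fold change 1.10, SE 0.13, adjusted p = 6.99e-08) and Rrm1 were called where Tyms, the thymidylate synthase gene, was not (0.33, adjusted p = 0.163).

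The day 11 count in Eed cells was 23 without the low-agreement libraries, 23 in a fit of the 2 groups alone, and 29 to 32 when each library was left out in turn. The count of 10 at day 7 moved with single libraries, to 1 when Eed replicate 1 or NT replicate 2 was left out, 2 for NT replicate 3, 5 for Eed replicate 2 and 6 for NT replicate 1. In a fit of the 2 groups alone it was 23. Pcna was called in each of these. At day 9 the 20 became 7 without Eed replicate 3, 8 without NT replicate 3, 10 without NT replicate 1 and 12 without Eed replicate 2. The shares over all tested genes given above are those of the model of all libraries, not of these fits.

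Markers of cell state moved beside the replication genes in Eed cells. At day 11 all 21 G2/M genes, 21 of 40 other replication genes and 14 of 23 E2F and G1/S genes were called higher, among them cyclin D1 gene Ccnd1 (2.59, SE 0.21, adjusted p = 3.28e-11) and E2f1 (1.99, SE 0.18, adjusted p = 2.83e-10), while E2f6, a repressor of the family, was lower (-0.35, SE 0.12, adjusted p = 0.0324). The CDK inhibitor genes Cdkn1a (1.58, SE 0.13, adjusted p = 3.28e-11), Cdkn1c (1.06, SE 0.12, adjusted p = 2e-08) and Cdkn2a were higher too. Astroglial genes were lower in 8 of 9, at a summed 1330 to 1610 CPM against 3760 to 3950 in NT. Oligodendrocyte genes were lower in 5 of 8 (272 to 308 against 436 to 571 CPM). Epithelial genes were higher in 6 of 8 (182 to 348 against 15.8 to 28.3 CPM), and neural crest genes in 4 of 6, with 1 lower (306 to 338 against 156 to 186 CPM). Neural progenitor genes were higher in 2 of 10 and lower in 3 (2620 to 2800 against 3150 to 3330 CPM). Neuronal genes were lower in 2 of 12 at day 11 and in 2 of 12 at day 9. At day 7 neuronal genes were lower in 10 of 12 (2490 to 3120 against 4150 to 4390 CPM). The part of these cell types in the levels of the replication genes was not tested.

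In Brd8 cells most replication genes were called higher at days 9 and 11. At day 7 Pcna alone was called, although 38 of 39 fold changes were above 0 (median 0.28) and 18 members had an unadjusted p under 0.05. The share of all tested genes at that unadjusted p was not counted. The day 7 count was 2 without Brd8 replicate 3, 3 with DESeq2's Wald test, 9 without the filter on low counts and 15 in a fit of the 2 groups alone. Of the 39, 29 were higher at day 9 (median 0.69) and 30 at day 11 (median 0.67, from -0.01 to 1.46), with none called lower. Over all tested genes the model of all libraries called 1.3% higher and 3.45% lower at day 7. It called 7.72% and 7.81% at day 9, and 10.3% and 7.48% at day 11. Shares of all tested genes under the day 7 alternatives are not given here. Brd8 cells differ from Eed cells in the protein targeted, a subunit of an acetyltransferase complex in place of one of PRC2, and each was compared with the same NT libraries.

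The lead at day 9 was carried unevenly by the 2 Brd8 libraries, whose 39 genes summed to 2470 and 3250 CPM against 1800 ± 162 in NT (SD, n = 3). Without the higher one, replicate 2, the count fell to 8, and without replicate 1 it was 29. The counts were 21 to 30 without each NT library, and shares of all tested genes in these fits are not given here. Cdc45 was at 22.9 and 31 CPM in Brd8 and 10.7, 12.3 and 8.25 in NT, both Brd8 libraries above NT (log2 fold change 1.37, SE 0.21, adjusted p = 1.51e-05). Rrm2 was at 153 and 221 CPM against 82.9, 107 and 89.1 (log2 fold change 1.00, SE 0.14, adjusted p = 5.58e-06), and Cdt1 at 81.5 and 103 against 36.5, 49.6 and 40.3 (log2 fold change 1.12, SE 0.19, adjusted p = 5.68e-05).

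The MCM ring was called in 6 of 6 genes in Brd8 cells at day 11. Mcm3 was at 115, 91.8 and 76.6 CPM, above all NT libraries (log2 fold change 1.24, SE 0.13, adjusted p = 7.58e-09), and Mcm4 at 119, 104 and 107 (log2 fold change 0.79, SE 0.10, adjusted p = 1.26e-07). Polymerases delta and epsilon were called in 4 of 4, with Pole2 the largest difference of the 39 (15.4, 8.66 and 12.5 CPM, log2 fold change 1.46, SE 0.26, adjusted p = 5.07e-05). Primase was called in both subunits, Prim1 at 1.05 and Prim2 at 0.70, and polymerase alpha in Pola2 (0.99) but not in its catalytic subunit Pola1, whose 34.9, 24.7 and 27.6 CPM overlapped NT (0.34, adjusted p = 0.183). Pcna was at 81.3, 69.9 and 74.6 CPM (log2 fold change 0.81, SE 0.12, adjusted p = 5.82e-06), and 1 of the 5 loader genes, Rfc5, was called (0.66). Orc1 was the 1 member below 0 (-0.01), at 5.91, 7.07 and 5.03 CPM. The other members not called were Gins2, Rfc1 to Rfc4, Chaf1b and Tyms, with log2 fold changes of 0.09 to 0.47. The calls for Gmnn (1.41) and Rpa2 (0.93) were lost without replicate 3 of NT (0.94, adjusted p = 0.102, and 0.56, adjusted p = 0.124).

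The day 11 count in Brd8 cells was 22 without the low-agreement libraries, 21 to 28 with each library left out in turn, and 17 in a fit of the 2 groups alone. For these fits the shares of all tested genes are not given here. Beside the members at day 11, all 21 G2/M genes, 14 of 40 other replication genes and 14 of 23 E2F and G1/S genes were higher. Among them were Ccnd1 (2.66, SE 0.21, adjusted p = 9.4e-11) and Uhrf1 (1.22, SE 0.13, adjusted p = 7.52e-09). Astroglial genes were lower in 6 of 9 (1600 to 1790 against 3760 to 3950 CPM) and oligodendrocyte genes in 5 of 8. Neural crest genes were higher in 3 of 6 (342 to 453 CPM) and no epithelial gene was called. Neural progenitor genes were higher in 2 of 10 and lower in 4 (2750 to 2910 against 3150 to 3330 CPM). Neuronal genes were lower in 1 of 12. At day 9 neuronal genes were lower in 9 of 12 (3790 to 4650 against 5870 to 6810 CPM), and at day 7 in 7 of 12. Their part in the result was not tested.

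In Ezh2 cells 19 of 39 were called higher at day 11 (median log2 fold change 0.52, from -0.06 to 1.00) and none lower. At day 7 and at day 9 edgeR's model of all libraries called none, with medians of 0.16 and 0.13 and 35 and 34 fold changes above 0. An unadjusted p under 0.05 was reached by 3 and 2 members, and the share of all tested genes that reached it was not counted. At day 7 a fit of the 2 groups alone called 2 members higher, and 1 was called without the filter on low counts and 1 by DESeq2's Wald test. At day 9 each of these called 0. Over all tested genes the model of all libraries called 0.0855% higher and 0.0658% lower at day 7. It called 0% and 0% at day 9, and 5.22% and 2.7% at day 11. Few genes of any kind were thus called by that model before day 11.

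The MCM ring was again called in 6 of 6 genes at day 11, from 0.37 (Mcm2) to 0.91 (Mcm3). Mcm3 was at 74.1, 69.5 and 81.6 CPM against 39.3, 45.4 and 34.9 in NT, without overlap (log2 fold change 0.91, SE 0.13, adjusted p = 1.18e-05). None of the 4 licensing genes was called. Cdt1 was at 36.2, 39 and 29.2 CPM, with 1 library inside the range of NT (0.42, adjusted p = 0.164), and Orc1 was at 5.53, 6.41 and 6.98 (0.06). Pcna was at 69.8, 71.3 and 80.5 CPM (log2 fold change 0.79, SE 0.12, adjusted p = 3.67e-05), while none of the 5 loader genes was called. Rrm2 was at 79.5, 86.2 and 93.1 CPM (log2 fold change 0.78, SE 0.13, adjusted p = 0.000136), and Lig1 at 58.6, 62.8 and 59 (log2 fold change 0.66, SE 0.13, adjusted p = 0.000739). The other 10 called were Rrm1, Chaf1a, Rpa2, Pole, Pole2, Pola2, Prim1, Prim2 and the GINS genes Gins1 and Gins4, in which Pole had 0.52 and Prim2 0.85. The call for Rpa2 (0.89) was lost without replicate 3 of NT (0.52, adjusted p = 0.249).

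Leaving out the low-agreement libraries gave 13 in place of 19 calls. The count was 11 without replicate 3 of NT, the lowest of the leave-one-out counts (11 to 18), and 10 in a fit of the 2 groups alone. For these fits the shares of all tested genes are not given here. At day 11, 19 of 21 G2/M genes, 10 of 40 other replication genes and 10 of 23 E2F and G1/S genes were higher, led by Ccnd1 (2.09, SE 0.21, adjusted p = 3.53e-08) and E2f1 (1.47, SE 0.18, adjusted p = 1.04e-06). Astroglial genes were lower in 5 of 9 (2150 to 2430 against 3760 to 3950 CPM), and neural crest genes were higher in 3 of 6 and lower in 1. Neural progenitor genes were higher in 2 of 10 and lower in 3 (2800 to 2970 against 3150 to 3330 CPM). No neuronal gene was called. Their part in the result was not tested.

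**Figure D4:**
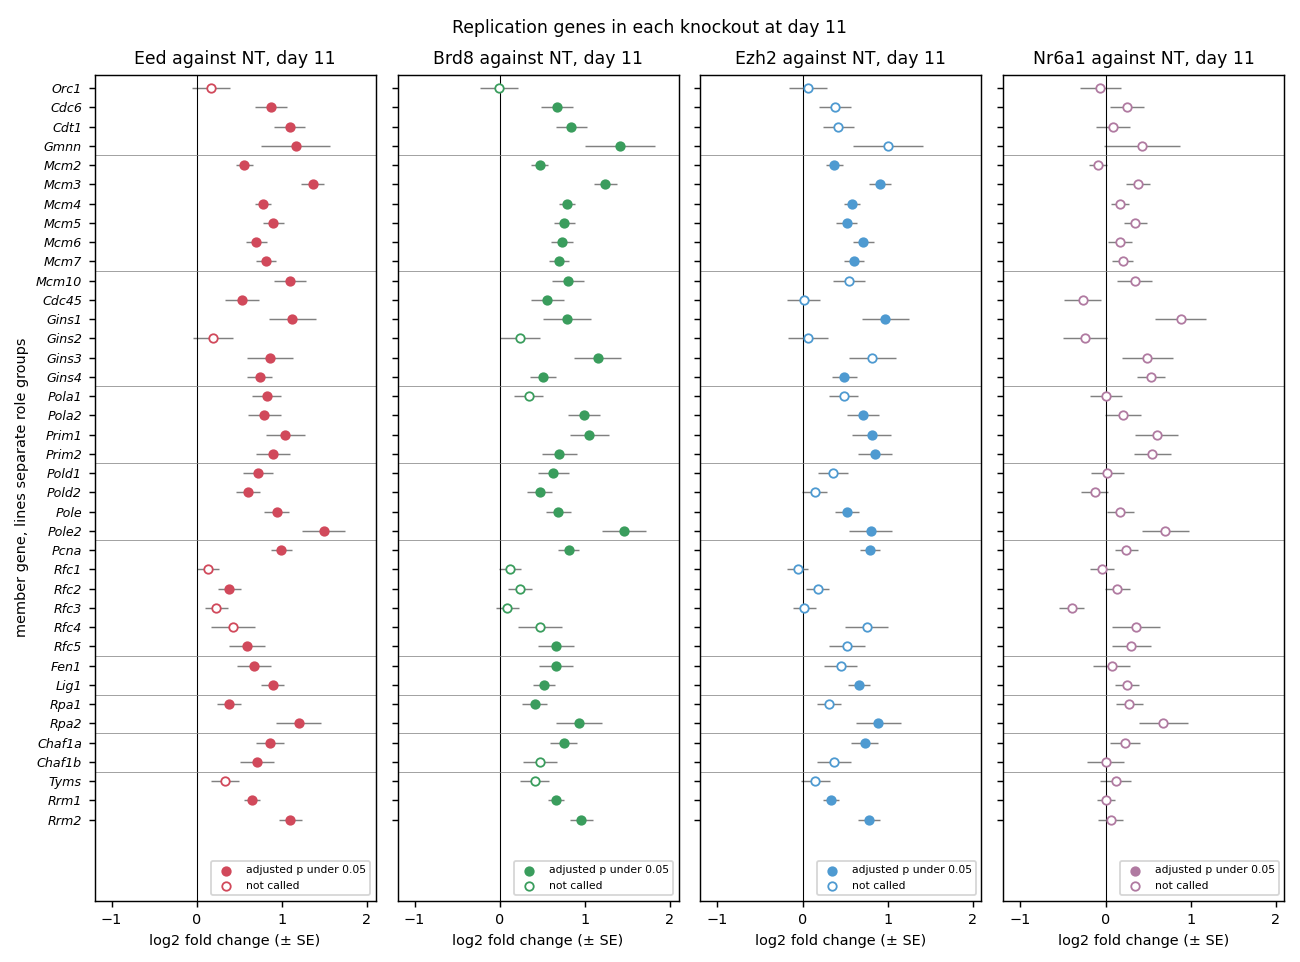
Log2 fold change with its SE for each member (rows, grouped by role) in each knockout against NT at day 11, with 3 libraries per group and 2 for Nr6a1. Filled points were called at an adjusted p under 0.05, open points were not, and all 4 panels share the NT libraries. The 6 Mcm rows are filled in the Eed, Brd8 and Ezh2 panels, and no point is filled for Nr6a1.

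In Nr6a1 cells edgeR's model of all libraries called no member at any day. The medians were -0.23 at day 7 and -0.26 at day 9, with 36 and 38 of the 39 fold changes below 0, and 0.20 at day 11, with 31 above 0. At an unadjusted p under 0.05 there were 4, 14 and 9 members, and DESeq2's Wald test called 0 at each day. The share of all tested genes at that unadjusted p was not counted. Without the filter on low counts edgeR called 1 member lower at day 7 and 5 at day 9, and in fits of the 2 groups alone 1 and 3, with 0 at day 11 in both. Over all tested genes the model of all libraries called 0.145% higher and 0% lower at day 7. It called 0.138% and 0.0132% at day 9, and 0.0526% and 0.0263% at day 11, in groups of 2 libraries. The 39 genes summed to 2880 ± 183 CPM (SD, n = 2) at day 7, 1440 ± 99.6 at day 9 and 1210 ± 151 at day 11. Both libraries lay below all 3 NT libraries at days 7 and 9. Mcm3 was at 163 and 176 CPM at day 7, 64.3 and 69.1 at day 9, below each NT library of those days, and 46.1 and 57.4 at day 11, above each of them. The corresponding log2 fold changes were -0.25 (SE 0.14), -0.52 (SE 0.14) and 0.38 (SE 0.14), with adjusted p = 0.724, 0.169 and 0.436. Gins4 had the smallest adjusted p at day 11, at 25.2 and 22.8 CPM against 15.9, 16.7 and 17.5 in NT (log2 fold change 0.53, SE 0.16, adjusted p = 0.226). Without replicate 2 of NT at day 11, 1 member was called, Rpa2 (1.51, adjusted p = 0.00132). Astroglial markers summed to 769 to 1020 CPM at day 7 against 452 to 499 in NT, with 3 of 9 called higher, and their part in these levels was not tested.

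**Figure D5:**
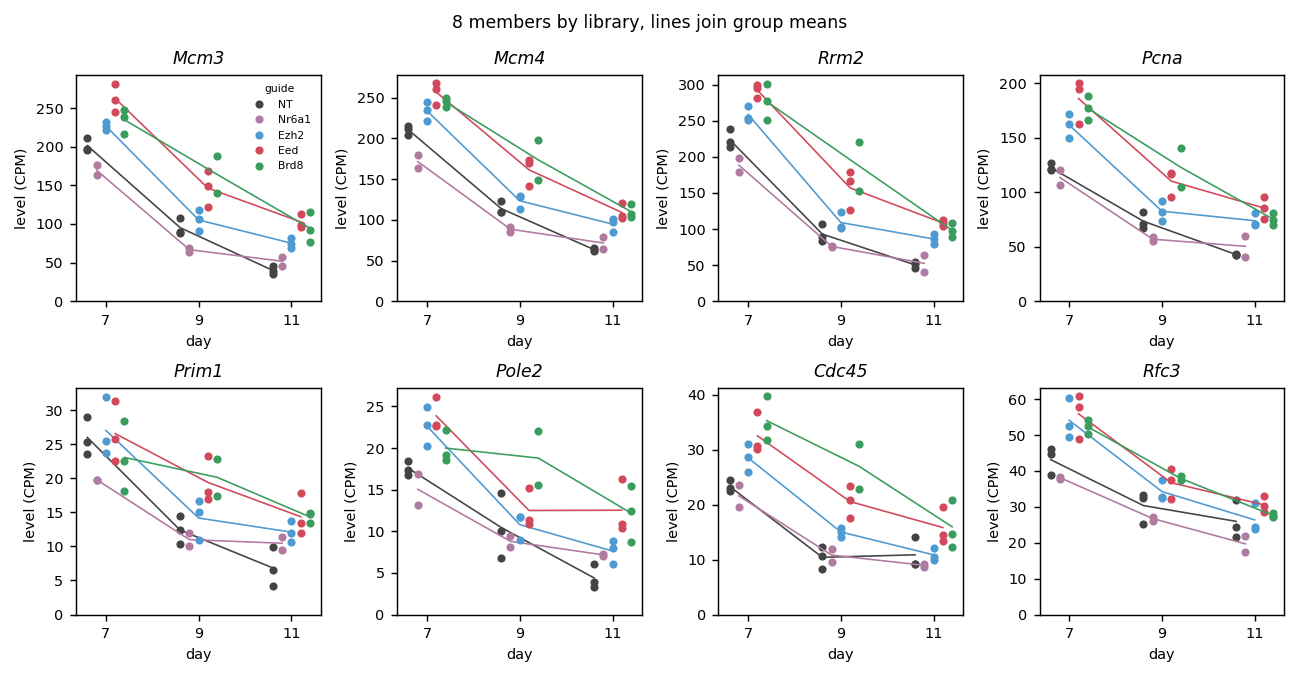
CPM of 8 members in each library (points) by day, with lines joining group means, coloured by genotype, on linear axes from 0. For Mcm3, Mcm4, Rrm2 and Pcna the day 11 points of Eed, Brd8 and Ezh2 lie above NT (Mcm3 at 69.5 to 115 CPM against 34.9 to 45.4), while for Rfc3 the genotypes overlap at day 11.

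The knockout effects were tested for a change between day 7 and day 11, with the effect at day 7 subtracted from that at day 11. In Eed cells 6 of 39 members were called with a larger effect at day 11 (median difference of the 39 in log2 fold change 0.41). Calls numbered 5 in Brd8 cells (median 0.34), 2 in Ezh2 cells (median 0.40) and 0 in Nr6a1 cells (median 0.44). In Nr6a1 cells 14 members had an unadjusted p under 0.05, and DESeq2's Wald test called 0. How many of all tested genes reached that unadjusted p was not counted. No member was called with a smaller effect, although 7 differences were below 0 in Eed cells, 6 in Brd8, 6 in Ezh2 and 3 in Nr6a1. Over all tested genes 4.01% were higher and 2.32% lower in Eed cells, 2.98% and 1.57% in Brd8 cells, 1.01% and 0.408% in Ezh2 cells, and 0.0395% and 0.0723% in Nr6a1 cells. The 4 tests share the NT libraries, so their medians are not independent of each other.

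Mcm3 had the smallest adjusted p in each of the 3 knockouts with calls. Its difference in log2 fold change was 0.98 in Eed cells (SE 0.18, adjusted p = 0.000367), 1.02 in Brd8 cells (SE 0.18, adjusted p = 0.000355) and 0.74 in Ezh2 cells (SE 0.18, adjusted p = 0.023). In level, Mcm3 at day 7 was 211, 196 and 197 CPM in NT, 281, 245 and 261 in Eed, 239, 248 and 217 in Brd8 and 227, 232 and 221 in Ezh2. Every library of these knockouts was thus above NT at day 7, but the Brd8 and Ezh2 differences of that day were not called. How many of all tested genes lay apart in this way was not counted. The log2 fold changes were 0.38, 0.22 and 0.17 at day 7 against 1.36, 1.24 and 0.91 at day 11. Rrm2 was called in Eed (0.72, adjusted p = 0.0114) and Brd8 (0.66, adjusted p = 0.0302), as were Mcm4 (0.49 and 0.58) and Prim1 (1.00 and 1.22). Mcm5 (0.58) and Pole (0.69) were called in Eed cells, Pole2 (1.28) in Brd8 cells and Chaf1a (0.87) in Ezh2 cells. The Eed count was 2 without the low-agreement libraries, 2 without Eed replicate 3 of day 7, and 3 without NT replicate 1 of day 7, without Eed replicate 3 of day 11 or in a fit of the groups compared. The Ezh2 count was 0 or 1 without any 1 of 7 libraries (Ezh2 replicates 1, 2 and 3, NT replicates 1 and 2 of day 7, Ezh2 replicate 3 and NT replicate 3 of day 11). The Brd8 count was 3 without Brd8 replicate 2 or NT replicate 1 of day 7, or Brd8 replicate 1 or NT replicate 3 of day 11, and 8 without NT replicate 2 of day 11. Mcm3 was called in each of these alternatives for Eed and Brd8, and shares of all tested genes in them are not given here.

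Eed and Ezh2, which encode subunits of the same complex, were compared directly at day 11. In Eed cells 2 of the 39 members were called higher and none lower (37 fold changes above 0, median 0.21, from -0.33 to 0.69), where 1.53% of all tested genes were higher and 1.35% lower. Cdt1 was at 49.9, 57.7 and 58.5 CPM in Eed cells and 36.2, 39 and 29.2 in Ezh2 cells, without overlap (log2 fold change 0.67, SE 0.17, adjusted p = 0.0299). Mcm3 was at 96.1, 98.9 and 113 CPM in Eed cells and 74.1, 69.5 and 81.6 in Ezh2 cells (log2 fold change 0.45, SE 0.12, adjusted p = 0.0421). Both calls were lost without the low-agreement libraries, without Eed replicate 2 or 3, and without Ezh2 replicate 1 or 3. The count was 1 without Ezh2 replicate 2, 5 without Eed replicate 1, and 7 with DESeq2's Wald test. For these fits the shares of all tested genes are not given here. Epithelial markers differed between these groups in 6 of 8 genes (182 to 348 CPM in Eed, 12.9 to 48.5 in Ezh2) and astroglial markers in 3 of 9, and their part in the result was not tested.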

How the data were processed

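RNA of mouse R1-iCas9 cells was sequenced from directional, ribodepleted libraries, per the labels' protocols (the labels also call the library source genomic). The authors deposited a table of raw, estimated counts by gene symbol. Of its values 2.95% had a fraction (among members 6, all of Fen1) and were rounded. The genome build mm10 and the tool DESeq2 are named, per the submitters' processing notes. Aligner, quantifier and annotation: not given in the sources used here. Libraries were grouped from their titles (41 libraries, 15 groups, 8581282 to 38240227 counts each).

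In R 4.3.3, edgeR 4.0.16 was used with filterByExpr by group (15204 genes tested), TMM scaling and a quasi-likelihood fit of all libraries, 1 coefficient for each group. Two-sided p-values were adjusted (Benjamini-Hochberg) across the tested genes in each of 20 comparisons. CPM are TMM-scaled, fold changes and SE are those of the model, and a difference between days is an interaction contrast. The pipeline was tested on simulated counts. Many simulated 2-fold changes were not called, most often in the 2-library comparison, so a count of 0 does not show that members were unchanged. The requirement on signs was limited to called genes after a stricter form, which also counted genes that were not called, was not met. Positions are from GENCODE M21 (GRCm38, the assembly of mm10), matched by symbol for 39 of 39. Exons of 11 members overlap a gene on the opposite strand and those of 3 a gene on the same strand, such as Mcm7 with Mir25 and Mir93.

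The members, their 10 role groups and 12 further gene lists (other replication genes, E2F and G1/S regulators, CDK inhibitors, G2/M, and markers of 8 cell types) were chosen with earlier results of these data known. Any member could be named. Values per library are given for the member with the smallest adjusted p in each role in NT and in each knockout at day 11, for members moving against the others, and for members named beside these after their values were seen. At most 4 genes of a further list are named per comparison by adjusted p, except E2f6 and Rbl2, named as the exceptions in a count. Alternatives were fits with each library left out, with the compared groups alone, with a block for the replicate number, with all genes kept, with DESeq2 size factors, and by the Wald test of DESeq2 1.42.0. Leaving out both libraries with a best correlation under 0.95 to their own group was added after the data were seen. Counting error limits low members most: 3 counts stand for 0.0785 to 0.35 CPM.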

Additional observations from a re-analysis of the deposited data

Results flagged for a closer look

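The results here were picked out because the effect of a knockout differed between day 11 and day 7 in the test of that difference, each as a difference in log2 fold change with edgeR's quasi-likelihood test. In Eed cells 6 members differed: Mcm3 by 0.98, Mcm4 by 0.49, Mcm5 by 0.58, Prim1 by 1.00, Pole by 0.69 and Rrm2 by 0.72. In Ezh2 cells 2 differed, Mcm3 by 0.74 and Chaf1a by 0.87. In Brd8 cells 5 differed, Mcm3 by 1.02, Mcm4 by 0.58, Prim1 by 1.22, Pole2 by 1.28 and Rrm2 by 0.66. All were larger at day 11. The adjusted p of Prim1 in Eed cells was 0.0461 and ranged from 0.00521 to 0.352 over its alternatives.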

How the results depend on the processing

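Of 249 counts of called members under an alternative, 189 were within 1.5 times the reported count and 60 moved by more, 35 of them with 1 library left out. The shares of all tested genes called under each alternative are not given here. No alternative called members in both directions. DESeq2 size factors moved none of the 20 counts by more than 1.5 times, and the median log2 fold change of all genes stayed within 0.069 of 0 in every comparison and setting. The replicate block changed 6 counts, each by 1 (to 11 for Eed at day 7 and 5 for its change to day 11, for example), and changed no other count. Same-numbered libraries correlated by -0.03 to 0.10 in their deviations from group means, so the numbers were not read as pairs. Without the low-count filter the counts were 1 for Ezh2 and 9 for Brd8 at day 7, 1 and 5 (all lower) for Nr6a1 at days 7 and 9, 12, 7, 11 and 2 for the change to day 11 in Eed, Ezh2, Brd8 and Nr6a1, and 9 for Eed against Ezh2. DESeq2's Wald test gave 1 for Ezh2 and 3 for Brd8 at day 7 and 7 for Eed against Ezh2, with 17 adjusted p missing for Ezh2 at day 7. With only the groups compared, the counts were 23, 2, 15 and 1 (lower) for Eed, Ezh2, Brd8 and Nr6a1 at day 7, 3 (lower) for Nr6a1 at day 9, 10 and 17 for Ezh2 and Brd8 at day 11, 3 and 4 for the change to day 11 in Eed and Ezh2, and 4 for Eed against Ezh2. Without the low-agreement libraries the last 3 were 2, 1 and 0. The cause was not tested. With 1 library left out, the counts ranged from 1 to 7 and 7 to 22 for Eed at days 7 and 9, 1 to 2 and 8 to 30 for Brd8 at days 7 and 9, 11 to 18 for Ezh2 and 0 to 1 for Nr6a1 at day 11, 2 to 8, 0 to 2, 3 to 8 and 0 to 1 for the change to day 11 in Eed, Ezh2, Brd8 and Nr6a1, and 0 to 5 for Eed against Ezh2. A lone library of a group of 2 was taken to vary like the other groups. Members of few counts, such as Gmnn, and groups of 2 libraries limit these tests most.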
